A study of Drosophila melanogaster with 4 samples.

Results

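The comparison described here is between wing imaginal discs carrying 2 transgenes, PI3K overexpression together with Hdac3 RNAi, and discs carrying Hdac3 RNAi alone. It uses 2 of the 4 arrays of the study, chosen by their sample titles, with 1 array on each side. Of 11981 genes named by a probe set of a single gene, 7755 were measured on at least 1 of the 2 arrays. The study hybridised RNA from wing discs, the larval epithelia from which wings and the back of the thorax develop, of Drosophila melanogaster larvae in the 3rd instar. All 4 genotypes were in a yw background, were kept at 25 °C and carried en-Gal4, a driver that turns on UAS transgenes in the posterior compartment of the disc. The discs with both transgenes were yw with en-Gal4 over UAS-PI3K and with UAS-Hdac3 RNAi over a plain chromosome. The Hdac3 RNAi discs had en-Gal4 over a plain chromosome and the same UAS-Hdac3 RNAi transgene. The remaining arrays were discs with en-Gal4 over UAS-PI3K (PI3K) and discs with en-Gal4 alone (control).

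The genotypes set limits on what the pair can show. The driver acts in one compartment while whole discs were dissected, so each array holds RNA of cells that express the transgenes and of cells that do not. UAS-PI3K is written opposite en-Gal4, so the discs with it also differ from the Hdac3 RNAi discs in 1 copy of that chromosome, and transgene and chromosome cannot be told apart. The number of discs or animals behind an array is not given in the sources used here. With 1 array a side there is no replicate error and no test: every difference below is between 2 arrays, and the number of arrays limits its precision. The RNA is from bulk tissue, so fewer cells of a type and less RNA per cell cannot be told apart. The transcripts of Hdac3 and of the PI3K subunits are not analysed here.

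PI3K is the lipid kinase that the insulin receptor activates. Its product recruits the kinases Pdk1 and Akt to the membrane; Akt holds the transcription factor FOXO in the cytoplasm and raises the activity of the TOR kinase, which promotes protein synthesis and growth of the cell. Overexpression of PI3K in imaginal discs is known to enlarge cells and tissue. Hdac3 is a histone deacetylase that acts with the Smr corepressor to repress transcription. The pair therefore sets discs with the growth signal and the depleted deacetylase against discs with the depleted deacetylase alone.

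The arrays had similar depth of signal. The 2% trimmed means of the deposited intensities were between 281 and 287 on the 4 arrays, and between 7540 and 7698 genes were at or above the floor, which is the 90th percentile (26.9) of the scaled intensities of odorant and gustatory receptor probe sets. A value under the floor was raised to it, and a ratio with 1 array under the floor is a bound. Wing disc selectors were present on both arrays of the pair: nub, which specifies the wing pouch, read 2738 with both transgenes and 2922 with Hdac3 RNAi, and vg, the wing selector, read 1056 and 1172. Log2 ratios of the 9 hybridisation spike probe sets ranged between -0.10 and 0.16, with the median at -0.06.

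Most genes read alike on the 2 arrays. Among the 7456 genes whose level reached the floor on both, the median log2 ratio of both transgenes over Hdac3 RNAi was 0.02 and its SD across genes 0.22, and 6660 genes (89.3%) lay within 0.25 of 0. Of these, 10 genes (0.134%) were at least 2-fold higher and 28 (0.376%) were at least 2-fold lower. Of 158 genes above the floor only with both transgenes, 5 (3.16%) were at least 2-fold above it, and of 141 above the floor only with Hdac3 RNAi, 9 (6.38%) were at least 2-fold above it. Bounds included, 15 of 7755 genes (0.193%) were higher by 2-fold or more and 37 (0.477%) lower. With 16 added to each value in place of the floor (called no floor below), 12 of these 52 genes were under 2-fold. Among them were CG3649, CG32055, Rab9 and Tsp42Ek. With the floor at the 95th percentile 7 were, among them CG14957, CG32055 and Bace. Each of the 52 genes is read by 1 probe set, so no second probe set bears on it. In the 453 genes that do have several measured probe sets, the SD between the log2 ratios of a gene's probe sets was 0.15. The genes nearest the threshold were Cpr64Ac (1.01) and LysS (-1.002) inside it, and Fst (0.96) and CG8369 (-0.99) outside it.

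**Figure D1:**
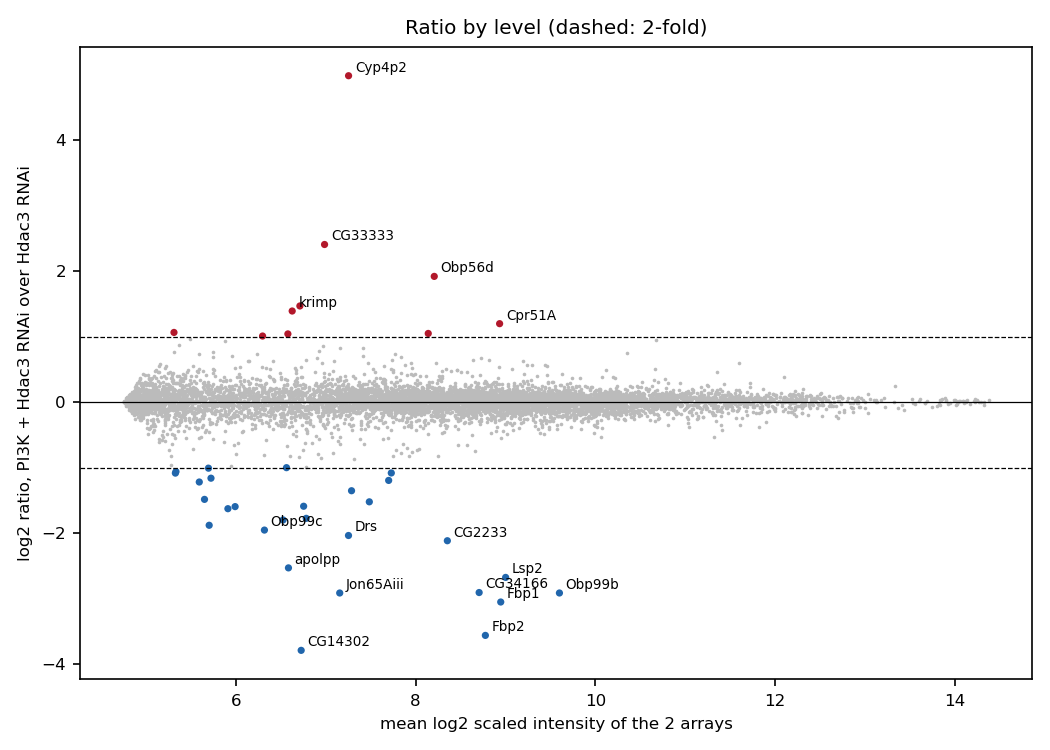
Log2 ratio of PI3K plus Hdac3 RNAi over Hdac3 RNAi (vertical axis) against the mean log2 scaled intensity of the 2 arrays (horizontal axis), 1 point for each of the 7456 genes that reached the floor on both. The cloud is centred at 0.02; 10 genes in red lie at or above the upper 2-fold line and 28 in blue at or below the lower one.

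The highest ratio belonged to a cytochrome P450 gene, and the P450 gene next to it was higher too. P450s are monooxygenases that oxidise hormones, lipids and foreign compounds. Cyp4p2, on arm 2R, read 859 with both transgenes and 27.2 with Hdac3 RNAi, and 806 with PI3K and 22.5 in control. It was high on both arrays with the PI3K transgene and close to or under the floor on both without it, and its log2 ratio in the pair was 4.98 (31.6-fold). Cyp4p1, the adjacent gene, read 108 and 17.7 in the pair, and 122 with PI3K and 14.5 in control, a bound of 2.01. Cyp4p3, the next gene along, was under the floor on all 4 arrays. Over the list of 31 measured genes with a Cyp symbol, 15 had a ratio above 0 and 16 below it, and the median was 0.00. Of all 7755 measured genes, 4370 (56.4%) were above 0 and 43.6% below it. The Cyp list also holds Cyp1 (-0.02) and Cyp40 (-0.06), which encode cyclophilins and not P450s, both among those below 0.

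CG15385 on arm 2L and swi2 on 2R also read higher on both arrays with the PI3K transgene than on both without it. CG15385 read 209 with both transgenes and 11.7 with Hdac3 RNAi, and 168 with PI3K and 8.48 in control, a bound of 2.96. swi2 read 97.6 and 22.8 in the pair, and 111 with PI3K and 33.0 in control, a bound of 1.86. Without the transgene only the control value of swi2 was above the floor.

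Obp56d, of the odorant-binding protein family of small secreted carriers, read 575 with both transgenes and 152 with Hdac3 RNAi, and 803 with PI3K and 263 in control. The log2 ratio was 1.92 in the pair. Its neighbours Obp56b, Obp56c, Obp56e and Obp56f were under the floor on all 4 arrays. CG32055 (57.5 and 27.5 in the pair, 76.8 with PI3K and 37.5 in control) and Rab9, an endosomal GTPase (137 and 66.7, and 160 and 86.3), also read higher on both arrays with the PI3K transgene. Their log2 ratios were 1.06 and 1.04, and the other 17 measured Rab genes lay between -0.12 and 0.24.

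A further set was high mainly on the array with both transgenes. CG33333, on 3R, read 292 with both transgenes and 55.1 with Hdac3 RNAi, against 87.0 with PI3K and 77.9 in control, a log2 ratio of 2.41. CG7465 read 175 with both transgenes and 63.1 with Hdac3 RNAi, against 62.5 and 54.0 (log2 ratio 1.47). CG14957 read 63.5 and Cpr11B, a cuticle protein gene, 55.6 with both transgenes, and both were under the floor on each of the other 3 arrays (bounds 1.24 and 1.05). In these 4 genes the array with both transgenes was the highest of the 4.

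In krimp the Hdac3 RNAi array was the low one. krimp encodes a component of the piRNA pathway, which silences transposons in the germ line. It read 160 with both transgenes and 61.1 with Hdac3 RNAi, and 115 with PI3K and 215 in control. The log2 ratio was 1.39 in the pair and -0.90 for PI3K over control. The 5 other measured piRNA pathway genes lay between -0.06 (tud) and 0.26 (spn-E). CG3649 was likewise low on the Hdac3 RNAi array alone, with 406 and 196 in the pair and 549 with PI3K and 457 in control (1.05).

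Cuticle protein genes gave 3 of the 15 higher genes. Cpr51A read 741 with both transgenes and 323 with Hdac3 RNAi (1.20), and Cpr64Ac 112 and 55.5 (1.01), while Cpr11B was a bound. Cpr64Ac read 707 with PI3K and 165 in control, so its 2 values in the pair were the lower 2 of the 4. With no floor and 16 added to each value, Cpr64Ac was at 0.84 and Cpr11B at 0.92, under 2-fold. With the floor at the 95th percentile Cpr11B was at 0.72. Cuticle genes made up 44 of the 7755 measured genes, of which 33 had a ratio above 0, with a median of 0.10. The lowest was Lcp9 at -0.45, with 43.3 and 59.2.

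**Figure D2:**
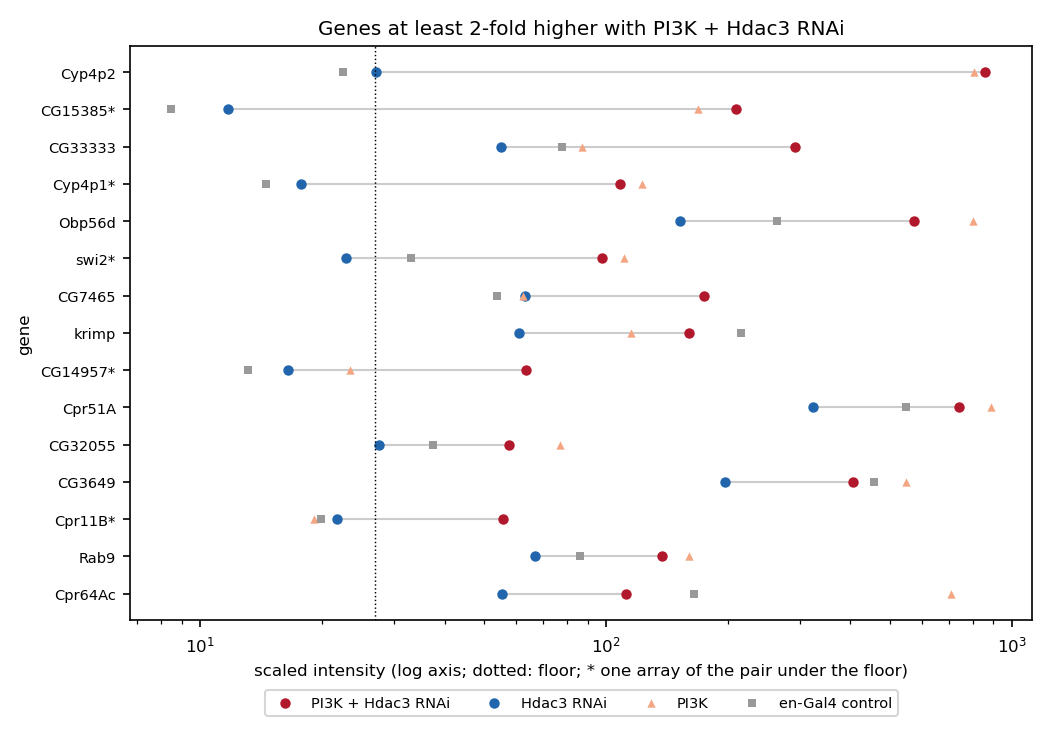
Scaled intensity (log axis) on the 4 arrays for the 15 genes at least 2-fold higher with PI3K plus Hdac3 RNAi than with Hdac3 RNAi, ordered by size of ratio; the grey bar joins the 2 arrays of the pair and the dotted line is the floor. Cyp4p2, CG15385 and Cyp4p1 are high on both arrays with PI3K, while CG33333 and CG7465 stand apart on the array with both transgenes.

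The genes that read lower with both transgenes were led by proteins that larvae make outside the disc epithelium. The fat body, the larval counterpart of liver and adipose tissue, makes storage proteins and lipid carriers that circulate in the hemolymph. Fbp2 read 128 with both transgenes and 1507 with Hdac3 RNAi, and 3188 with PI3K and 719 in control. Fbp1, the receptor for storage protein uptake, read 171 and 1422 in the pair, and 1458 with PI3K and 457 in control. Lsp2, a storage hexamerin, read 203 and 1297 in the pair, and 2358 with PI3K and 622 in control. All 3 were lowest on the array with both transgenes, and their log2 ratios were -3.56, -3.05 and -2.68.

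Obp99b, of the odorant-binding family, and apolpp, which encodes the lipophorin that carries lipid in hemolymph, were also lowest on the array with both transgenes. Obp99b read 283 with both transgenes and 2132 with Hdac3 RNAi, and 5593 with PI3K and 1189 in control (-2.92). apolpp read 40.0 and 231 in the pair, and 220 with PI3K and 105 in control (-2.53). The fat body list had 7 measured genes, of which 5 were at least 2-fold lower, against 0.477% of all measured genes. The list's median was -2.68. Tsf1, a transferrin, at 0.15 (179 and 161) and the lipid transfer particle gene Apoltp at 0.46 (51.8 and 37.6) were not lower. The list's summed level was 1055 with both transgenes and 6788 with Hdac3 RNAi, and 12989 with PI3K and 3250 in control, so these genes varied on all 4 arrays; the part of adhering fat body in these ratios was not tested.

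Digestive enzymes were the next group. Jon65Aiv, a gut serine protease, read 16.1 with both transgenes, under the floor, and 530 with Hdac3 RNAi, and 1792 with PI3K and 566 in control. Its bound of -4.30 (19.7-fold) was the lowest of the 7755 ratios. Jon65Aiii, of the same protease family, read 51.9 and 392 in the pair, and 1382 with PI3K and 515 in control (-2.92). The related protease yip7 read 49.4 and 172 in the pair (-1.80), and the lysozyme gene LysS 66.9 and 134 (-1.002, but -0.86 with no floor). Of 12 measured digestive genes 11 had a ratio below 0, against 43.6% of all measured genes. At least 2-fold lower were 4 of them, against 0.477% of all measured genes. But the median was -0.20, as the trypsin genes alphaTry, betaTry, epsilonTry and the protease gene Jon66Ci lay between -0.19 and -0.06. The summed level of the list was 821 with both transgenes and 1911 with Hdac3 RNAi, and 4935 with PI3K and 2094 in control, and its part in the ratios of single genes was not tested.

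The salivary glue genes, which encode the secretion that fixes the pupa to its substrate, were lower too, with a median of -0.55 and smaller extremes. Sgs7 read 114 with both transgenes and 178 with Hdac3 RNAi (-0.63), Sgs3 52.3 and 81.0 (-0.63), Sgs8 114 and 157 (-0.47) and Sgs5 136 and 176 (-0.37). With PI3K the same 4 genes read between 562 and 1441, and in control between 77.6 and 190. None of the 4 measured glue genes reached 2-fold in the pair, and the other 6 on the array were under the floor on both arrays of the pair.

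Blood cell genes read lower as a group. Hemocytes are the macrophage-like cells that circulate in larvae and adhere to tissue. All 12 measured hemocyte genes had a ratio below 0, against 43.6% of all measured genes, with a median of -0.64. At least 2-fold lower were 3 of them, against 0.477% of all measured genes. He, a hemocyte surface protein, read 97.8 with both transgenes and 250 with Hdac3 RNAi, and 99.4 with PI3K and 154 in control (-1.35). srp, a GATA factor of blood and fat body, read 35.4 and 79.1 in the pair, and 56.3 with PI3K and 63.5 in control (-1.16, but -0.89 with no floor). Nplp2 read 146 and 309 in the pair, and 136 with PI3K and 155 in control (-1.08). In all 3 genes the Hdac3 RNAi array was the highest of the 4.

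Further hemocyte genes followed by smaller steps. The phagocytic receptor NimC1 read 73.4 with both transgenes and 130 with Hdac3 RNAi (-0.82), the clotting protein gene Hml 202 and 333 (-0.73), the peroxidasin Pxn 164 and 242 (-0.56) and the receptor eater 57.5 and 78.8 (-0.46). PPO1 (443 and 447) and PPO2 (560 and 579), prophenoloxidases of crystal cells, were at -0.01 and -0.05. The summed level of the list was 2240 with both transgenes and 2986 with Hdac3 RNAi, and 3309 with PI3K and 3125 in control. PPO1 (973 with PI3K and 767 in control) and PPO2 (1116 and 854) weighed most in the PI3K and control sums. Of the remaining members only NimC2 read higher with PI3K than in control, so those sums do not give the order of the other genes. The part of hemocyte number was not tested. Drs, which encodes the antifungal peptide drosomycin, read 75.4 and 309 in the pair, and 72.9 with PI3K and 158 in control (-2.04). The other 5 measured antimicrobial peptide genes lay between -0.23 and 0.22.

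Matrix and muscle genes showed how far other cell types moved with these lists. Collagen IV, made largely by the fat body in larvae, is encoded by Col4a1 and vkg, which read 625 and 575 with both transgenes and 814 and 697 with Hdac3 RNAi (-0.38 and -0.28). Of 9 measured basement membrane genes, 8 had a ratio below 0, with a median of -0.09, and the lowest was the perlecan gene trol at -0.42 (467 and 626). The 7 adult muscle precursor genes had a median of -0.13, led by zfh1 (205 and 267, -0.38) and the FGF receptor gene htl (233 and 300, -0.37), while twi read 175 and 186 (-0.09). The 10 sarcomere genes had a median of -0.08 and the 7 tracheal genes 0.06. No gene of the sex lists reached 2-fold. The yolk protein gene Yp3 was lowest with 31.8 and 44.5 (-0.49), followed by dsx, the sex differentiation switch, with 244 and 313 (-0.36). msl-2, which is translated in males, read 134 and 132 (0.01), and Sxl, the female switch gene, 633 and 617 (0.04).

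Of the 28 genes at least 2-fold lower, 12 belonged to the fat body, glue, digestive, hemocyte or antimicrobial lists, as did 1 of the 9 lower bounds and none of the 15 higher genes. Of all 7755 measured genes, 37 (0.477%) were lower by 2-fold or more, bounds included. These lists hold few genes and were chosen with earlier results of these data known. The lowest ratio above the floor on both arrays belonged to a gene outside those lists: CG14302 read 28.5 with both transgenes and 394 with Hdac3 RNAi, and 676 with PI3K and 402 in control (-3.79). CG34166 read 152 and 1145 in the pair, and 2273 with PI3K and 551 in control (-2.91). CG2233 read 157 and 681 in the pair, and 1077 with PI3K and 333 in control (-2.12). All 3 were lowest with both transgenes and highest with PI3K, as Fbp2, Fbp1 and Lsp2 were. CG34166 and CG2233 also read higher with Hdac3 RNAi than in control, like those genes, while in CG14302 these values were close.

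Other genes outside those lists had named products. Obp99c, of the odorant-binding family, read 40.6 with both transgenes and 157 with Hdac3 RNAi (-1.95). The clotting factor gene fon read 59.6 and 204 in the pair, and 660 with PI3K and 176 in control (-1.78). The tetraspanin genes Tsp42Ep (27.2 and 100, -1.88) and Tsp42Ek (36.6 and 73.6, -1.01) encode membrane proteins of 1 clustered family. CG15369 read 34.3 and 106 in the pair and 426 with PI3K, and CG8997 read 30.1 and 84.2 in the pair and 724 with PI3K. In the pair their log2 ratios were -1.63 and -1.49.

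A few genes were high mainly on the Hdac3 RNAi array. CG13324, on 2R, read 7.12 with both transgenes and 159 with Hdac3 RNAi, and 11.4 with PI3K and 15.2 in control, so that 1 array alone stood above the floor (bound -2.56). The following 5 genes were chosen after their values were seen. Prx6c, a peroxiredoxin gene, read 20.7 and 120 in the pair, and 28.1 with PI3K and 17.2 in control, a bound of -2.15. Bace, which encodes an aspartyl protease, read 26.0 and 59.4 in the pair and was below the floor on the PI3K and control arrays, a bound of -1.14. CG9021 read 137 and 315 in the pair, against 30.5 with PI3K and 40.6 in control (-1.20), and so was higher on both arrays that share the Hdac3 RNAi transgene. Ag5r2 (36.6 and 111, -1.60) and CG13323 (27.9 and 58.3, -1.06) were also highest on the Hdac3 RNAi array. Over the 37 lower genes, the array with both transgenes was the lowest of the 4 for 31, the PI3K array the highest for 21 and the Hdac3 RNAi array the highest for 15.

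**Figure D3:**
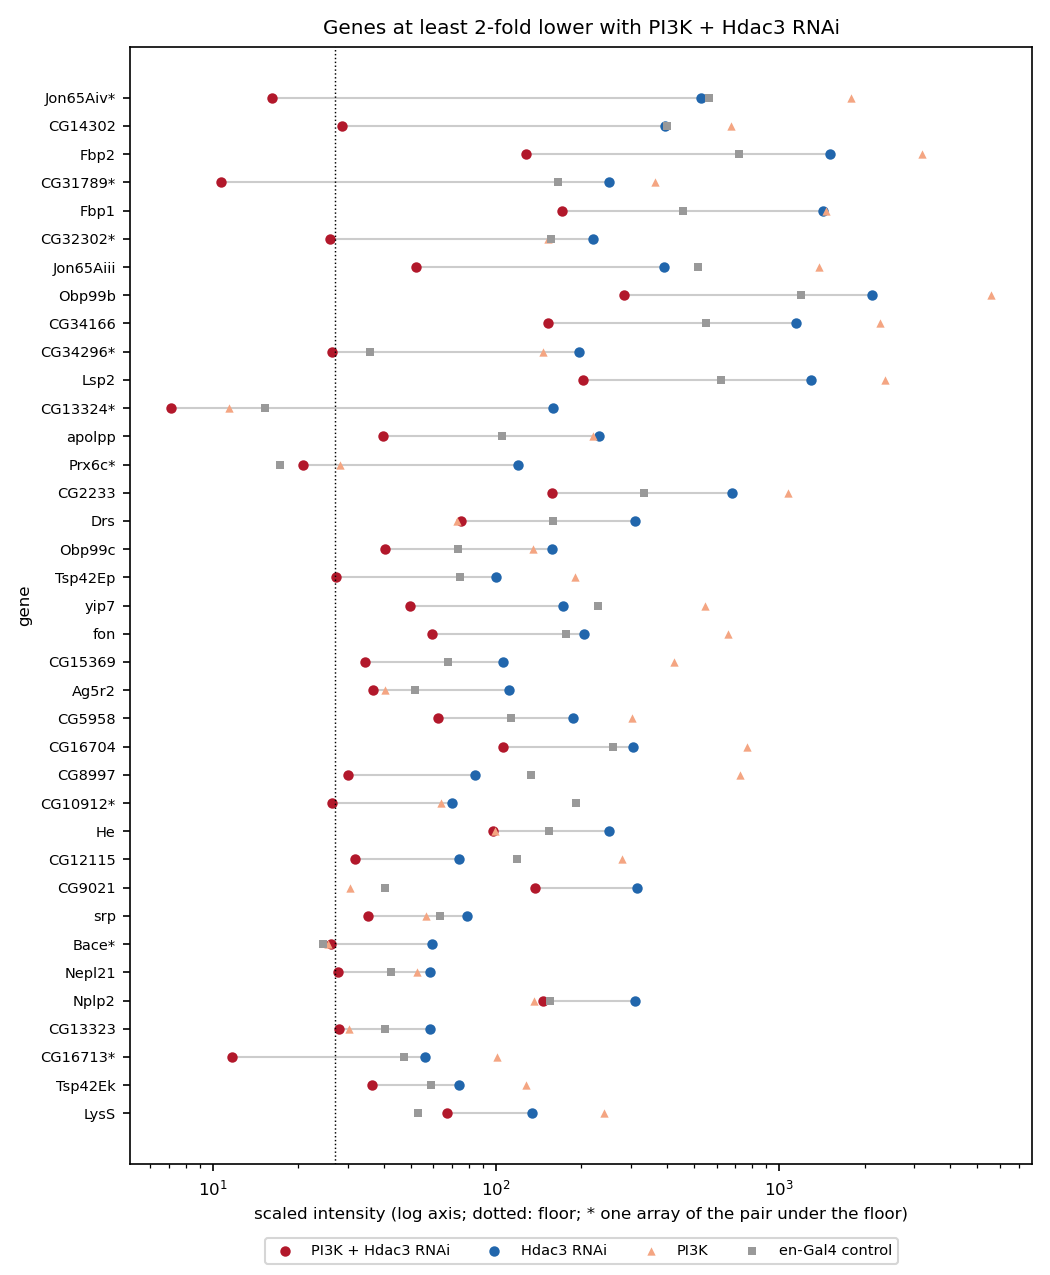
Scaled intensity (log axis) on the 4 arrays for the 37 genes at least 2-fold lower with PI3K plus Hdac3 RNAi than with Hdac3 RNAi, ordered by size of ratio; the grey bar joins the 2 arrays of the pair and the dotted line is the floor. The array with both transgenes is the lowest of the 4 for 31 genes, and the PI3K array lies right of the pair for Fbp2, Lsp2, Obp99b and the Jon65A proteases.

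Transcripts of the insulin and TOR cascade itself were slightly lower with both transgenes. Of 15 measured genes, 12 had a ratio below 0, against 43.6% of all measured genes; none reached 2-fold, and the median was -0.07. InR, the receptor at the top of the cascade, read 390 with both transgenes and 541 with Hdac3 RNAi (-0.47). The kinase gene Pdk1 read 595 and 775 (-0.38), foxo 152 and 186 (-0.29), the adaptor gene chico 210 and 254 (-0.27), Akt 799 and 937 (-0.23) and S6k, a kinase target of TOR, 1111 and 1284 (-0.21). The TOR inhibitor genes Tsc1 (-0.13) and gig (0.00) and the TOR complex genes rictor (-0.03) and Lst8 (-0.03) were closer to 0. For PI3K over control the median of the same 15 genes was -0.27, with InR at -1.31, where it read 188 with PI3K and 465 in control.

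FOXO activates a set of starvation genes when PI3K signalling is low. Of 8 measured FOXO-responsive genes, 6 had a ratio above 0, with a median of 0.22. Pepck1, a gluconeogenic enzyme gene, was just short of 2-fold with 2264 with both transgenes and 1175 with Hdac3 RNAi, and 2308 with PI3K and 1763 in control (0.95). Its paralogue Pepck2 read 72.9 and 94.2 (-0.37). ImpL2, which encodes a secreted binder of insulin-like peptides, read 954 and 812 (0.23), and the TOR inhibitor gene scyl 1943 and 1784 (0.12). Sesn (0.29), Pdk (0.23) and the lipase gene bmm (0.21) were slightly higher, and InR, also a FOXO target, was the lowest of the 8. ImpL2 and scyl differed more between PI3K and control: ImpL2 read 2106 and 1195 there, and scyl 912 and 1556.

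The 3 posterior compartment genes all had a ratio above 0, with a median of 0.23, and none reached 2-fold. en, the posterior selector gene whose regulatory sequence drives Gal4, read 1376 with both transgenes and 1281 with Hdac3 RNAi (0.10). hh, the signal that posterior cells send, read 900 and 767 (0.23), and inv, the paralogue of en, 254 and 215 (0.24). inv read 227 with PI3K and 50.0 in control, so the control array stood apart from the other 3. The receiving side of the Hedgehog pathway had a median of 0.01 over 10 genes, with its transcription factor ci, an anterior gene, at -0.20 (2406 and 2771) and the receptor gene ptc at 0.08 (91.8 and 86.7).

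Patterning and growth-signalling genes leaned slightly below 0. Of 24 measured wing patterning genes, 18 had a ratio below 0, with a median of -0.12. The lowest was the homeobox gene Lim1 at -0.43 (135 and 182), and dpp, which encodes the BMP morphogen of the wing, was at -0.42 (659 and 878). The glycosyltransferase gene fng was even (3199 and 3187), and the highest was the T-box gene Doc2 at 0.13. In the Dpp pathway the receptor gene tkv read 3482 and 3883 (-0.16) and the inhibitory Smad gene Dad 1707 and 1791 (-0.07), and the list's median was -0.11 over 12 genes. The 8 EGF receptor pathway genes had a median of -0.15, with the adaptor gene drk lowest at -0.29 and the ligand gene spi highest at 0.04. Of 15 Hippo and Fat pathway genes 13 had a ratio below 0, with a median of -0.07; the cadherin gene ds read 1922 and 2243 (-0.22), the kinase gene wts 812 and 911 (-0.16) and the coactivator gene yki 963 and 967 (-0.01).

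The Notch-responsive E(spl) complex leaned the other way, with 8 of 9 measured genes above 0 and a median of 0.14. E(spl)mbeta-HLH read 3656 with both transgenes and 3128 with Hdac3 RNAi (0.22), E(spl)malpha-BFM 2320 and 2017 (0.20) and E(spl)m5-HLH 76.4 and 60.7 (0.33). For PI3K over control 7 of the 9 were below 0, with a median of -0.16. The 13 integrin and septate junction genes, which hold the epithelium together, had 12 ratios below 0 and a median of -0.09, led by dlg1 at -0.25 (554 and 660) and Nrg, a septate junction adhesion gene, at -0.25 (1538 and 1830), with the integrin gene mys at -0.24 (1038 and 1227). The 7 proneural and sensory organ genes had a median of -0.13, with the Notch inhibitor gene numb at -0.38 (1848 and 2407).

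Cell cycle genes were close to even in the pair. Of 20 G1/S and replication genes, 15 had a ratio below 0, with a median of -0.04. CycE, the cyclin that starts S phase, was lowest with 621 with both transgenes and 824 with Hdac3 RNAi (-0.41), while PCNA, the replication clamp, read 5252 and 5137 (0.03). The 20 G2/M and mitosis genes had a median of 0.00, between the phosphatase gene twe at -0.18 and the kinase gene aurB at 0.20 (1125 and 980).

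Mitochondrial and proteasome genes leaned above 0 in most of their members, by small steps. Of 69 mitochondrial ribosome genes, 64 had a ratio above 0, with a median of 0.11 and mRpL4 highest at 0.28 (1977 and 1623). Of 26 proteasome subunit genes 25 were above 0, with a median of 0.06 and Prosalpha6 highest at 0.14 (6124 and 5544). Of 59 respiratory chain and ATP synthase genes 52 were above 0, with a median of 0.05. For PI3K over control all 69 and all 26 were above 0, with medians of 0.24 and 0.17.

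Cytosolic ribosome genes, a known output of TOR, had a median of 0.02 over 33 genes, the same as all genes. Most of them read near the top of the intensity range, such as RpLP1 at 21432 with both transgenes and 21054 with Hdac3 RNAi. The highest deposited values of these arrays were 22819 and 23003. Whether such high signals narrow the ratios was not tested. The 15 ribosome assembly genes, including the nucleolar protein gene Fib (3673 and 3449, 0.09) and the initiation factor gene Tif-IA (874 and 948, -0.12), had a median of -0.01. The 10 glycolysis genes had a median of 0.05, from Hex-A, hexokinase, at -0.19 (381 and 435) to Pgm1, phosphoglucomutase, at 0.23 (250 and 213). Of 15 amino acid supply genes, Gs1, a glutamine synthetase, was the lowest with 118 with both transgenes and 215 with Hdac3 RNAi (-0.86). AsnS, asparagine synthetase, read 78.3 and 62.8 (0.32), both well below the 189 with PI3K and 195 in control. The 22 autophagy genes had a median of 0.04 and the 12 fatty acid synthesis genes 0.04, with the synthase gene FASN1 at 554 and 530 (0.06), against 968 with PI3K and 587 in control.

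Chromatin regulators were examined because Hdac3 is a chromatin enzyme. Of 14 deacetylase and corepressor genes, 10 had a ratio below 0, with a median of -0.03. Smr, the corepressor partner of Hdac3, read 1166 with both transgenes and 1390 with Hdac3 RNAi (-0.25). HDAC1, a class I deacetylase, read 1480 and 1513 (-0.03). The 14 genes of the histone acetyltransferase list had a median of 0.04. This list also holds members of acetyltransferase complexes and mgr (0.07), which encodes a prefoldin subunit. Of its members mof, a histone H4 acetyltransferase, read 316 and 281 (0.17) and nsl1, of a complex with mof, 835 and 1029 (-0.30). Of 16 Polycomb, trithorax and Brahma genes 11 were below 0, with a median of -0.09. Pcl, which associates with the Polycomb methyltransferase complex, was the lowest with 303 and 477 (-0.65), followed by Scm with 700 and 883 (-0.34), whereas the methyltransferase gene E(z) read 384 and 380 (0.01).

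Stress and death genes gave no 2-fold ratio. Hsp68, an inducible chaperone gene, read 1810 with both transgenes and 1430 with Hdac3 RNAi, and 378 with PI3K and 768 in control, and was at 0.34 in the pair and -1.02 for PI3K over control. The 10 heat shock and chaperone genes had a median of 0.12, with Hsp26 at 0.25 (11239 and 9479) and Hsp27 at -0.08. The 14 JNK and wound response genes had a median of 0.01, from kay, the Fos gene, at -0.22 to the metalloprotease gene Mmp2 at 0.43 (49.6 and 36.8), and the relaxin-like gene Ilp8 was at 0.31 (43.8 and 35.2). Of 7 cell death genes 6 were above 0, with a median of 0.07, the caspase gene Dredd highest at 0.30 (605 and 493). The 15 ecdysone response genes had a median of -0.04, with the receptor gene EcR at -0.20 (203 and 234). The 26 glutathione S-transferase genes had a median of 0.04.

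**Figure D4:**
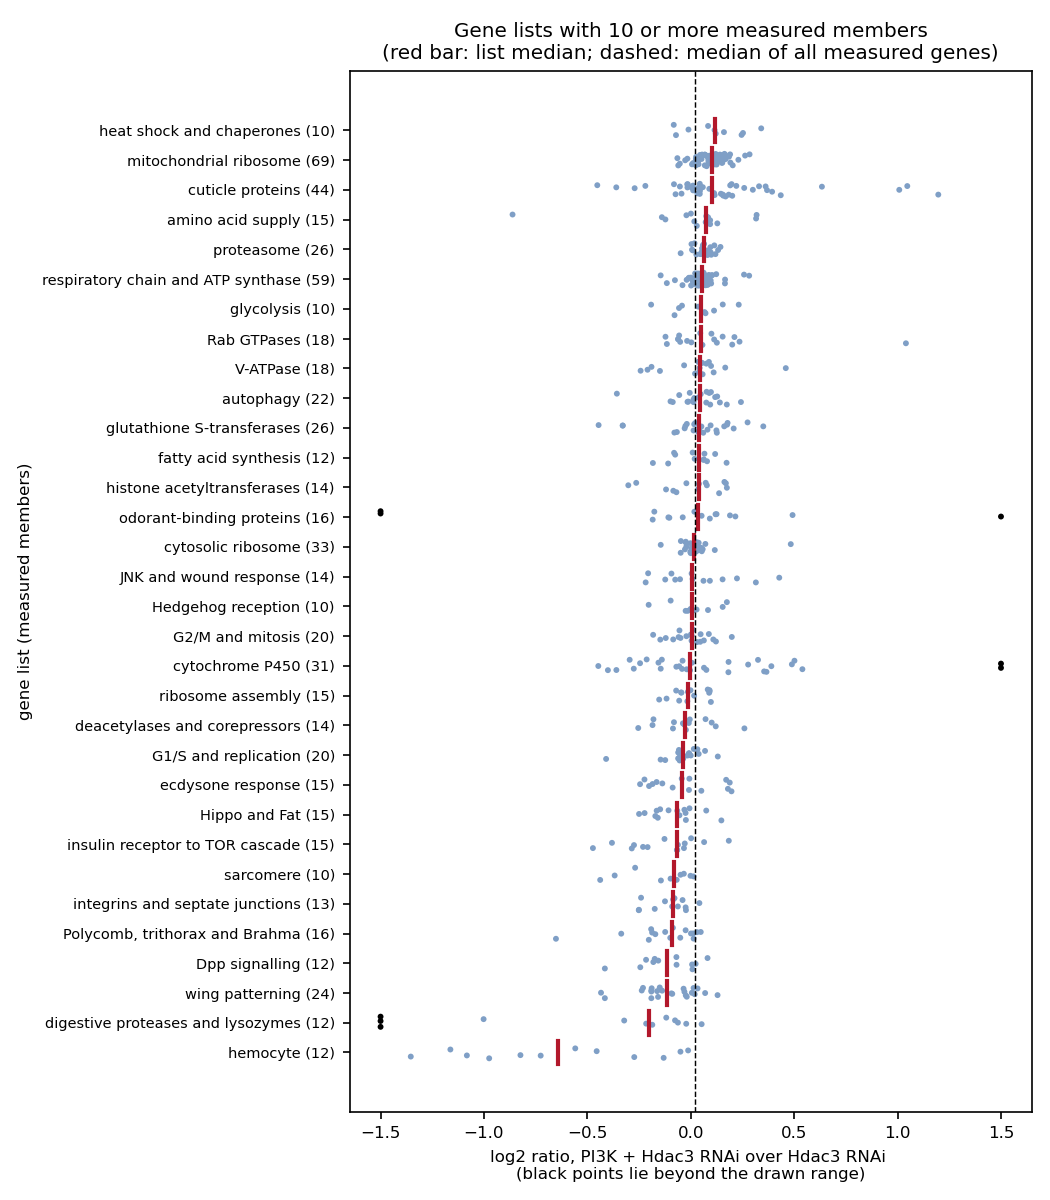
Log2 ratio of PI3K plus Hdac3 RNAi over Hdac3 RNAi for each measured member (blue points, black where beyond the drawn range) of the gene lists with 10 or more measured members, with list medians as red bars and the median of all measured genes, 0.02, dashed. The hemocyte (-0.64) and digestive (-0.20) lists have the lowest medians, and the remaining lists lie between -0.12 and 0.12.

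The PI3K transgene can also be followed without Hdac3 RNAi, since PI3K over control uses the other 2 arrays and shares none with the pair. In that comparison 63 genes (0.847%) above the floor on both arrays and 12 bounds (4.58%) were higher by 2-fold or more, together 75 of 7802 measured genes (0.961%), and 30 (0.385%) were lower, and the SD of the log2 ratio was 0.31, against 0.22 in the pair. Its ratio was above 0 in 55.2% of the measured genes and below 0 in 44.8%. Of the 15 genes higher in the pair, 13 were measured there, and 7 of them were at least 2-fold higher with PI3K than in control: Cyp4p2, CG15385, Cyp4p1, swi2, Obp56d, CG32055 and Cpr64Ac. Of the 37 genes lower in the pair, 35 were measured, and 22 were at least 2-fold higher with PI3K than in control, the opposite direction. Drs and CG10912 were at least 2-fold lower in both comparisons; CG10912 read 26.2 and 70.0 in the pair, and 64.0 with PI3K and 192 in control. With 1 array in each genotype the difference between the 2 comparisons was not tested.

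Across the 7301 genes that reached the floor on all 4 arrays, the log2 ratios of the pair and of PI3K over control had a Pearson correlation of 0.08 and a Spearman correlation of 0.40, and 67.2% had the same sign. Among the 7206 genes under 2-fold in both comparisons the Pearson correlation was 0.39. The genes share the 4 RNA samples and are not independent, so these values describe the arrays only. The fat body genes Fbp1, Fbp2 and Lsp2 and the protease genes Jon65Aiii, Jon65Aiv and yip7 had opposite signs in the 2 comparisons. The Cyp4p genes and most of the small ratios had the same sign in both.

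Gene span moved with the small ratios. In the pair, the Spearman correlation between a gene's span in the genome and its log2 ratio was -0.26 over 7425 genes, with medians of 0.05, 0.04, 0.00 and -0.04 from the shortest to the longest quartile. For PI3K over control it was -0.45, with medians of 0.11, 0.07, -0.03 and -0.16. The ratio of 3′ to 5′ probe sets, which grows when RNA is degraded or copied incompletely, was 2.85 with both transgenes and 3.25 with Hdac3 RNAi for actin, 3.67 and 3.94 for eIF-4a and 1.995 and 2.206 for GAPDH. With PI3K and in control the same ratios were 2.02 and 3.36 for actin, 3.11 and 3.95 for eIF-4a and 1.92 and 2.17 for GAPDH. For 18S rRNA the ratio was 4.86 with both transgenes and 4.77 with Hdac3 RNAi, and 4.95 with PI3K and 4.87 in control, so it was slightly higher with the PI3K transgene where the other 3 were lower. The part of gene span and of this ratio in the small leanings of the lists above was not tested. The gene lists with the most ratios above 0 hold short genes: the median span was 909 bases for the mitochondrial ribosome list and 1378 bases for the proteasome list, against 19884 bases for the wing patterning list.

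**Figure D5:**
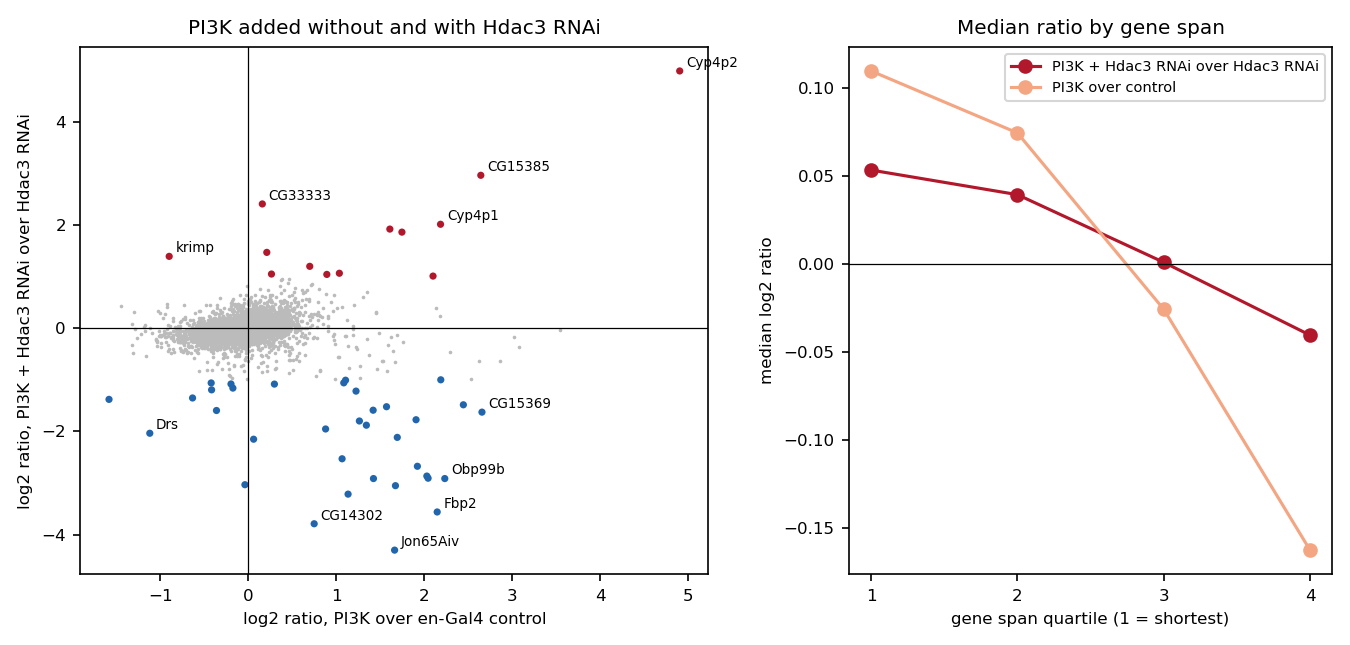
Left, log2 ratio of PI3K plus Hdac3 RNAi over Hdac3 RNAi (vertical) against that of PI3K over control (horizontal), 1 point a gene, with genes at least 2-fold higher in the pair in red and lower in blue; right, median log2 ratio by quartile of gene span. Cyp4p2, CG15385 and Cyp4p1 are high in both comparisons, Fbp2, Obp99b and Jon65Aiv lie at the lower right, and the medians of the pair are 0.05 in the shortest and -0.04 in the longest quartile.

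Because the discs with UAS-PI3K differ in 1 copy of chromosome 2, the position of the genes was tabulated. Chromosome 2 held 38.0% of the measured genes, 9 of the 15 higher genes (60%) and 17 of the 37 lower genes (45.9%). Cyp4p2, Cyp4p1, CG15385 and swi2, which were high on both arrays with the PI3K transgene and low on both without it, all lie on it. They belong to the 7 genes at least 2-fold higher both in the pair and with PI3K over control. Of the other members of that set, Obp56d lies on chromosome 2, and CG32055 and Cpr64Ac lie on chromosome 3. Chromosome 3 held 44.2% of the measured genes, 5 higher and 15 lower genes, and the X chromosome 16.8%, with 1 higher and 4 lower. The fat body and protease genes that were at least 2-fold lower lay on chromosomes 2, 3 and 4: Fbp2 on arm 2L, Fbp1, Lsp2, yip7 and the Jon65A genes on 3L, Obp99b on 3R and apolpp on chromosome 4.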

How the data were processed

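The values are linear microarray intensities of 18952 probe sets on each of 4 arrays, as the authors deposited them. They were made with MAS5, per the submitters' processing notes; neither version nor settings is given in the sources used here. Per the labels' protocols, Trizol RNA was labelled as biotin cRNA. A factor for each array brought its 2% trimmed mean to the average of the 4 arrays; scaled values under the floor of 26.9 (the 90th percentile of 125 odorant and gustatory receptor probe sets) were raised to it, and log2 was taken. Flooring makes ratios of dim genes smaller. Probe sets with 1 symbol in the 2016 array annotation (13646) were used, and a gene took its probe set with the highest mean. Spans and chromosomes came from the RefSeq table of Release 6.

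Samples were grouped by their labels. No test was run, since each genotype has 1 array; ratios, counts past 2-fold, list counts and medians are described, and counting and ratio steps were tested on simulated data. The members and the 54 gene lists were chosen with earlier results of these data known. Named genes are en, inv and hh; the 15 highest and 15 lowest ratios past 2-fold above the floor; up to 5 bounds each way; of each list the extremes and the 2 members with the highest mean, or every measured member in lists of up to 16; genes past 2-fold in both comparisons; and the marker genes of the wing disc. Alternatives were the deposited values unscaled, quantile normalization, another floor, no floor with 16 added, the mean of all probe sets, and omission of shared probe sets. The number of arrays limits the precision. Python 3.11.15, NumPy 2.4.6, pandas 2.3.3 and SciPy 1.17.1 were used.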

Additional observations from a re-analysis of the deposited data

Results flagged for a closer look

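These 22 genes were at least 2-fold lower with PI3K plus Hdac3 RNAi than with Hdac3 RNAi, and at least 2-fold higher with PI3K than in control. The opposite directions rest on 1 array for each genotype, and the difference between the 2 comparisons was not tested. Among genes of the fat body list, the log2 ratios in the pair were -3.56 for Fbp2, -3.05 for Fbp1, -2.92 for Obp99b, -2.68 for Lsp2 and -2.53 for apolpp. For PI3K over control the same genes were at 2.15, 1.67, 2.23, 1.92 and 1.07. Among digestive enzymes, the log2 ratios in the pair were -4.30 (a bound) for Jon65Aiv, -2.92 for Jon65Aiii, -1.80 for yip7 and -1.002 for LysS, and those of PI3K over control were 1.66, 1.42, 1.26 and 2.19. The clotting factor gene fon was at -1.78 in the pair and 1.91 for PI3K over control, and the tetraspanin genes Tsp42Ep and Tsp42Ek were at -1.88 and -1.01 in the pair and at 1.34 and 1.11 for PI3K over control.

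The genes with no named product were CG31789 (-3.22, a bound), CG34166 (-2.91), CG34296 (-2.87, a bound), CG2233 (-2.12), CG15369 (-1.63), CG5958 (-1.59), CG16704 (-1.52), CG8997 (-1.49), CG12115 (-1.22) and CG16713 (-1.06, a bound). For PI3K over control they lay between 1.09 (CG16713) and 2.66 (CG15369). LysS, Tsp42Ek and CG16713 lie close to the 2-fold threshold in the pair.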

How the results depend on the processing

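No paired analysis was possible because each genotype has 1 array, and for the same reason no array could be left out. Under the 6 alternative settings the count of higher genes was between 8 and 13, that of lower genes between 22 and 32, and the bounds were 4 to 5 higher and 9 to 11 lower; bounds do not exist without a floor. No called gene changed sign. With the floor at the 95th percentile, 21 of 52 called genes moved by more than 0.15 on the log2 scale, and with no floor 34 did. The higher floor raises the value that dim genes are set against. The added 16 narrows the ratios of genes above the floor, most where they are dim. Of the called genes, 7 were under 2-fold with the higher floor (CG32055, CG14957, Cpr11B, Nepl21, CG13323, Bace and CG16713), 12 with no floor (CG32055, CG3649, Rab9, Cpr64Ac, Cpr11B, CG12115, srp, Nepl21, CG13323, Tsp42Ek, LysS and Bace), and 1, LysS, on the values as deposited. All 54 list medians moved by less than that under each of the 6 alternatives, though 7 lists with medians near 0 crossed it under at least 1, the widest being axon guidance, at -0.04 and 0.04 without shared probe sets. The Spearman correlation with PI3K over control was 0.30 with no floor, a setting in which no gene counts as under the floor. In alternatives chosen after seeing the data, 16 lower genes were left without the fat body, glue, digestive, hemocyte and antimicrobial lists. Without the genes of chromosome 2, 4 higher genes, 17 lower genes, 2 higher bounds and 3 lower bounds were left, as fewer genes enter the count. Signals near the floor limit the ratios of dim genes.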

Other observations

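The genes beside the higher genes on the chromosome were read for their own ratios; those named here were chosen after their values were seen. CG5866, next to CG33333, read 51.1 with both transgenes and 13.4 with Hdac3 RNAi, and 14.0 with PI3K and 12.4 in control, a bound of 0.93. CG33333 and CG5866 thus both stood highest on the array with both transgenes. CG30197, next to Cpr51A, read 219 with both transgenes and 134 with Hdac3 RNAi, and 270 with PI3K and 173 in control (0.71). The genes beside CG15385 read alike on the pair, with Uch at -0.14 and CG34174 at 0.04.

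Tektin-C, which encodes a protein of axonemal microtubules, was even in the pair, with 382 with both transgenes and 350 with Hdac3 RNAi (0.13), but read 27.9 with PI3K and 25.4 in control. Both arrays that carry the Hdac3 RNAi transgene were high and both others were close to or under the floor.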
